A study of Mus musculus with 9 samples.

Results

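The genes described here are the fibroblast growth factor (FGF) and hepatocyte growth factor (HGF) ligands, their receptors, the Sprouty and Spred feedback inhibitors and the ETS factors Etv4 and Etv5. They were chosen by name alone: every Fgf, Fgfr, Spry or Spred symbol that ends in a number, plus Fgfrl1, Hgf, Met, Etv4 and Etv5. This gave 33 of the 19348 genes in the count table: 11 secreted paracrine FGF ligands, 3 endocrine FGF ligands, 4 intracellular FGF homologous factors, 5 FGF receptor genes, Hgf and Met, 6 feedback inhibitors and the 2 ETS factors. All 9 libraries came from lungs of C57BL/6J mice that carried Col1_GFP;Foxf1_tdTomato, a green reporter for type I collagen together with a red one for the forkhead factor Foxf1, and the populations differ only in which reporter the sorted cells showed. DBL cells showed both (replicates 1, 3 and 4), TDonly cells showed the Foxf1 reporter alone (replicates 1, 2 and 3) and ColGFP cells showed the collagen reporter alone (replicates 1, 2 and 3). The labels are silent on some points: the age of the mice, the number of animals per library, the promoter fragments behind the reporters and the gates of the sort are not stated there, and the labels' extraction text speaks of frozen lungs while the series' design describes sorted cells. No label calls the replicates separate animals, so p-values cover the spread between these libraries only, which could be technical.

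FGFs are secreted proteins that bind tyrosine kinase receptors together with heparan sulphate and activate the Ras and MAP kinase cascade. In the lung, mesenchymal cells make Fgf7 and Fgf10, which act on the epithelial splice form of Fgfr2, and they also make HGF, which acts through the receptor Met on epithelium and endothelium. Sprouty and Spred proteins are induced or engaged by these receptors and dampen the cascade, and Etv4 and Etv5 are transcription factors that FGF signalling induces.

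Total counts were 17820969 to 26147475 per library. Levels are CPM (counts scaled to a common library size) with TMM scaling factors, and mean ± SD is over n = 3 libraries. The Foxf1 transcript (Foxf1a in the table) measured 87.3 to 113 CPM in DBL, 229 to 279 in TDonly and 54.5 to 62.5 in ColGFP. Col1a1 measured 9539 to 13224 CPM in DBL, 373 to 1566 in TDonly and 4939 to 9593 in ColGFP. No population was free of endothelium or epithelium markers. The summed level of 10 endothelium markers was 4078 to 5154 CPM in DBL, 12136 to 13165 in TDonly and 718 to 1098 in ColGFP. That of 10 epithelium markers was 7273 to 8016 CPM in DBL, 11371 to 14813 in TDonly and 4011 to 12003 in ColGFP, and no marker of either list was at 0 in any library. The replicate 1 libraries carry sequencing core numbers of a lower series than the others (the second series); the labels name no batch. They stood apart within their populations: a chi-square comparison of gene counts, divided by its degrees of freedom, gave 54.5 to 101 when a pair held replicate 1 and 5.34 to 15.1 when it did not.

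Against ColGFP cells, DBL cells had lower levels of several mesenchymal FGF ligands, of Hgf, of Fgfr3 and Fgfr4 and of the feedback inhibitor Spry1. Of the 33 genes, 28 passed the filter on low counts. Of these 28, 8 were lower in DBL and 1 was higher at an adjusted p under 0.05 (edgeR quasi-likelihood, Benjamini-Hochberg over 15550 genes). Those counts are 28.6% and 3.57% of the tested genes of the set, beside 6.47% lower and 8.04% higher among all tested genes (14.5% in either direction). The DBL and ColGFP libraries did not overlap for 15 of the 28, beside 33.3% of all tested genes. The median log2 fold change of the 28 was -0.28, and that of all tested genes was -0.00. The lower genes were Fgf10, Fgf7, Fgf18, Fgf2, Fgfr3, Fgfr4, Hgf and Spry1, and the higher one was Fgf23. With DBL replicate 1 left out 5 were lower, and 4 were with any 1 of DBL replicates 3 and 4 and ColGFP replicates 2 and 3 left out. Within the second series 11 were lower and 3 were higher. The 3 were Fgf1, Etv5 and Met, and Fgf23 did not pass there (1.01, adjusted p = 0.0840).

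Against TDonly cells, DBL cells had higher levels of 13 of the 28 tested genes and lower levels of 3, that is 46.4% and 10.7%, beside 17.3% higher and 12.6% lower among all tested genes (29.9% in either direction). The DBL and TDonly libraries did not overlap for 21 of the 28, beside 47.0% of all tested genes. The higher genes were 6 paracrine ligands, Fgf23, Fgf14, the receptor genes Fgfr1, Fgfr4 and Fgfrl1, Spry2 and Etv4. The lower ones were Fgf1, Fgfr2 and Spry4. The median log2 fold change was 0.53, beside -0.04 for all tested genes. The count of lower genes was 1 without DBL replicate 3 or 4 and 5 without ColGFP replicate 1, and it was 6 within the second series.

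Against ColGFP cells, TDonly cells had lower levels of 19 of the 28 tested genes and higher levels of 2, Fgf1 and Spry4. Those counts are 67.9% and 7.14%, beside 24.0% lower and 21.6% higher among all tested genes (45.5% in either direction). The TDonly and ColGFP libraries did not overlap for 21 of the 28, beside 56.1% of all tested genes. The median log2 fold change was -1.06, beside 0.02 for all tested genes. The count of higher genes was 5 without ColGFP replicate 1 and 5 within the second series. The 3 comparisons share libraries, so their values for a gene are not independent of each other. DBL means lay between the means of the other populations for 17 of the 28 genes, and 61.0% of all tested genes had such a DBL mean. For 15 of the 28 the order was ColGFP, then DBL, then TDonly, an order that 28.8% of all tested genes had.

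**Figure D1:**
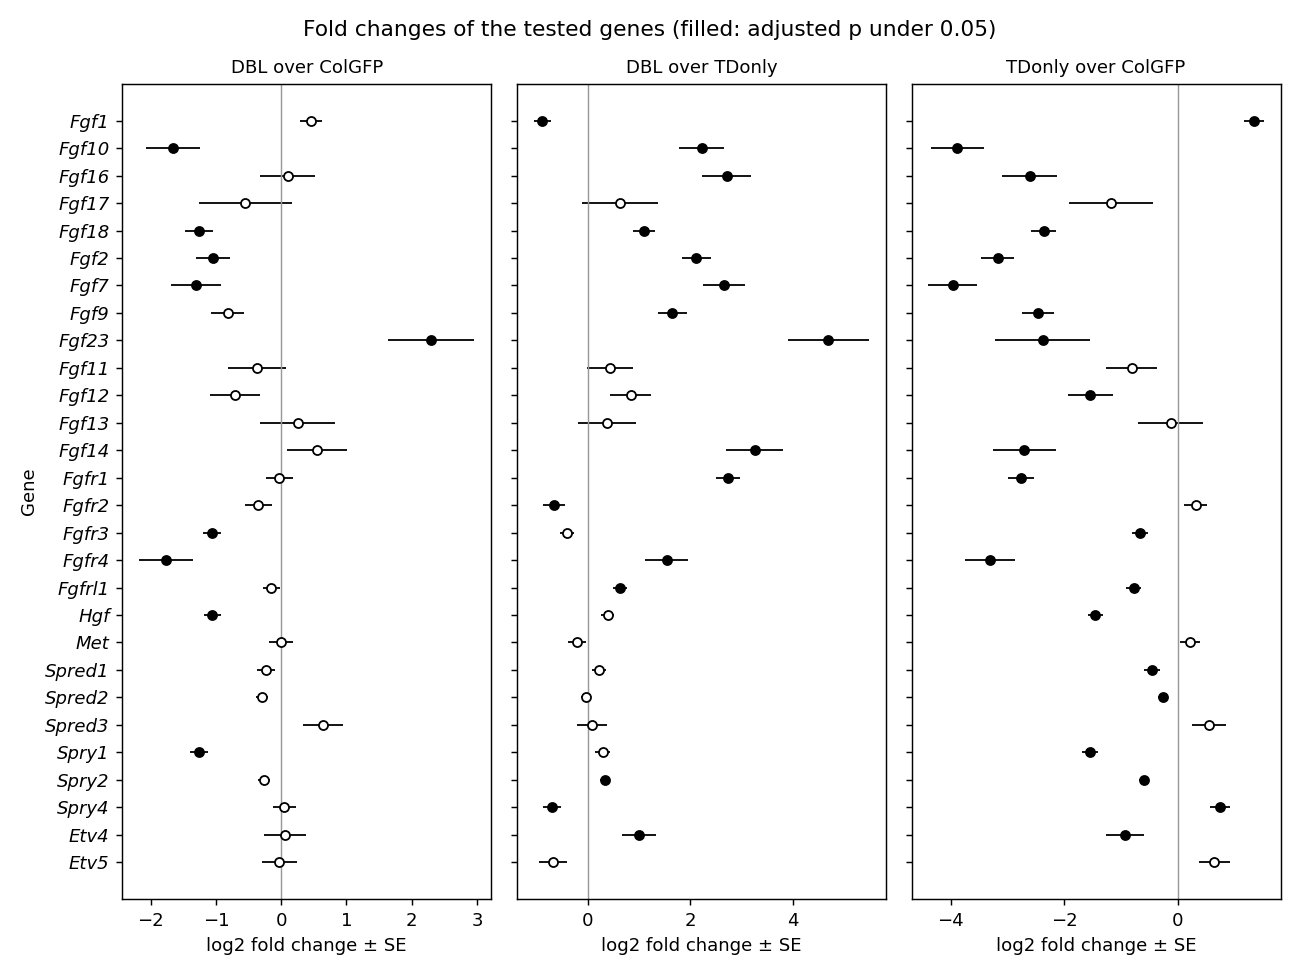
Log2 fold change (horizontal axis, with its standard error) of each of the 28 tested genes (vertical axis) in DBL over ColGFP, DBL over TDonly and TDonly over ColGFP. Filled points have an adjusted p under 0.05; in DBL over ColGFP 8 of the 9 filled points lie left of 0, and the other is Fgf23.

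Fgf10, the mesenchymal ligand that lung budding and branching require, lies on mm10 chromosome 13, 118714699 to 118792573. It measured 25.7, 45.8 and 37.1 CPM in the DBL libraries, 2.46, 10.4 and 10.6 CPM in TDonly and 97.5, 122 and 123 CPM in ColGFP. The 3 populations did not overlap, and TDonly replicate 1 was the lowest of all. DBL was below ColGFP by a log2 fold change of -1.66 ± 0.42 (SE, adjusted p = 0.0272) and above TDonly by 2.22 ± 0.44 (adjusted p = 0.00427). TDonly was below ColGFP by -3.88 ± 0.47 (adjusted p = 0.000111). The DBL to ColGFP call was lost on leaving out any 1 DBL library, ColGFP replicate 2 or ColGFP replicate 3 (adjusted p 0.0529 to 0.0915). That fold change was -1.55 within the second series (adjusted p = 1.62e-09) and -1.92 in the replicate 1 libraries taken alone.

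Fgf7, also called keratinocyte growth factor, lies on chromosome 2, 126034658 to 126091185, and acts on the same receptor form as Fgf10. It measured 33.2, 36.4 and 32.2 CPM in DBL, 1.71, 6.65 and 7.91 CPM in TDonly and 72.9, 90.5 and 89.8 CPM in ColGFP. As for Fgf10, the populations did not overlap and TDonly replicate 1 was the lowest library. The log2 fold changes were -1.31 ± 0.38 for DBL over ColGFP (adjusted p = 0.0451), 2.65 ± 0.41 for DBL over TDonly (adjusted p = 0.00103) and -3.96 ± 0.43 for TDonly over ColGFP (adjusted p = 5.29e-05). The first of these lost its call on leaving out any 1 DBL or ColGFP library or TDonly replicate 2 (adjusted p 0.0611 to 0.143). It was -1.38 within the second series (adjusted p = 7.64e-09).

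Most alveolar fibroblast markers moved with both ligands. Of 8 such markers, 5 were lower in DBL than in ColGFP and 7 were lower in TDonly than in ColGFP. Their summed level was 3086 to 4169 CPM in DBL, 539 to 1451 CPM in TDonly and 10449 to 10699 CPM in ColGFP, with TDonly replicate 1 the lowest library here too. On a scale from the TDonly mean to the ColGFP mean, the DBL mean stood at 26.7% for Fgf10, 36.1% for Fgf7 and 28.1% for the summed alveolar fibroblast markers. Single markers did not share that position. Tcf21 averaged 67.8 CPM in DBL, 11.7 in TDonly and 124 in ColGFP, and Itga8 355, 113 and 1497 CPM. Plin2 was lowest in DBL, at 52.7 CPM, against 66.0 in TDonly and 77.0 in ColGFP. Smooth muscle and myofibroblast markers had the same order: all 8 were lower in TDonly than in ColGFP and higher in DBL than in TDonly, and 4 were lower in DBL than in ColGFP. They summed to 789 to 927 CPM in DBL, 165 to 228 CPM in TDonly and 2816 to 5581 CPM in ColGFP, with DBL at 17.1% of the scale. That position rests largely on 1 gene, Hhip. It gave 2275 CPM of the mean sum of 3905 in ColGFP, but 139 of 835 in DBL. The part of either marker list in the ligand differences was not tested, and in sorted bulk samples fewer cells of a type and less RNA per cell cannot be told apart.

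Because the cells were sorted on a Foxf1 reporter, the promoter windows of 4 genes that differed and of Etv5 are shown, each from 250 bases before to 50 bases after a RefSeq transcript start (GRCm38.p6, printed in the direction of transcription). Capitals mark a match to the forkhead core GTAAACA on either strand; the reverse complement reads TGTTTAC. The windows lie at chr13:118714449-118714748 (plus strand) for Fgf10, chr2:126034408-126034707 (plus) for Fgf7, chr5:16553245-16553544 (plus) for Hgf, chr3:37639697-37639996 (plus) for Spry1 and chr16:22439521-22439820 (minus) for Etv5.
Fgf10: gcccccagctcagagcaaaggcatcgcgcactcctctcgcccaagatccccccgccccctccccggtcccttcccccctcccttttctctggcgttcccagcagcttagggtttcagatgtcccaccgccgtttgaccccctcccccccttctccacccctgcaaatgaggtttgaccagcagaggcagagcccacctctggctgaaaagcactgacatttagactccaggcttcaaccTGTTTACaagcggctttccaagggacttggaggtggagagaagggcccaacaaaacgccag
Fgf7: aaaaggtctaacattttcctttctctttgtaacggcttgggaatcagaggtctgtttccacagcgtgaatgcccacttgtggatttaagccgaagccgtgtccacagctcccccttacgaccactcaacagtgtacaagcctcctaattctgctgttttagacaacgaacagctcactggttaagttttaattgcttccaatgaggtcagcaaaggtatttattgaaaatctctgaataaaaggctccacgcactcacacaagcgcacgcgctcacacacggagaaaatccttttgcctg
Hgf: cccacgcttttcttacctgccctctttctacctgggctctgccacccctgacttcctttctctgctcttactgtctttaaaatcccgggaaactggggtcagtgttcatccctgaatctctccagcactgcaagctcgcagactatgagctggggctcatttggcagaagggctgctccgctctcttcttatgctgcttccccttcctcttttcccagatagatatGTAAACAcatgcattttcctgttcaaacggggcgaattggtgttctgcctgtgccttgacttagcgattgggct
Spry1: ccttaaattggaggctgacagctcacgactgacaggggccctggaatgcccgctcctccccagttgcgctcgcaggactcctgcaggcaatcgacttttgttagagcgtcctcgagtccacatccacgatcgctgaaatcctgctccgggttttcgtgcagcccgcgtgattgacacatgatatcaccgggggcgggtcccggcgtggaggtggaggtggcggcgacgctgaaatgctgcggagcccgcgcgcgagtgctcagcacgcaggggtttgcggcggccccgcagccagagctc
Etv5: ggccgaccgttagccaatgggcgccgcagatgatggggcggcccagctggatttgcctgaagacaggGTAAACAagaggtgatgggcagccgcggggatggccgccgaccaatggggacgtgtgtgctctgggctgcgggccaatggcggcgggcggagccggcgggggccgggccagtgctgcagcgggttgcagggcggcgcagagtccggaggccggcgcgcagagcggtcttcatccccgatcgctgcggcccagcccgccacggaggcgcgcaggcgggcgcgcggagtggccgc

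Windows were examined for 25 of the 33 genes, 34 windows in all since some genes have several starts. The forkhead core was present in 3 of these windows, those shown for Fgf10 (11 bases before the start), Hgf (24 bases before) and Etv5 (183 bases before). Hgf and Etv5 each have another window, at a different start, that did not hold it. Among all 32851 promoter windows of the same length, 3.65% held it. The ETS core CCGGAAG, searched on both strands and with no overlap with the forkhead core, was present in the Fgfrl1 window alone of the 34, and in 8.86% of all windows. Fgf10 and Hgf were lower in DBL than in ColGFP. So were Fgf7, Spry1, Fgf18, Fgf2, Fgfr3 and Fgfr4, whose windows held neither core. Etv5 did not pass the test. A match is a description of letters and not of a bound site.

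Fgf18, which acts in alveolar development, measured 3.97, 4.19 and 4.72 CPM in DBL, 1.44, 2.48 and 2.07 CPM in TDonly and 11.4, 8.71 and 10.8 CPM in ColGFP. The populations did not overlap. All 3 comparisons passed, with log2 fold changes of -1.26 ± 0.21 for DBL over ColGFP (adjusted p = 0.00356), 1.10 ± 0.22 for DBL over TDonly (adjusted p = 0.00451) and -2.36 ± 0.22 for TDonly over ColGFP (adjusted p = 2.48e-05). Unlike those of Fgf10 and Fgf7, the DBL to ColGFP call of Fgf18 passed under all 18 alternatives run (adjusted p up to 0.0342). Fgf2, or basic FGF, measured 5.95, 3.65 and 4.72 CPM in DBL, 0.740, 1.28 and 1.27 CPM in TDonly and 8.09, 11.9 and 9.84 CPM in ColGFP. It followed the same order, at -1.05 ± 0.26 for DBL over ColGFP (adjusted p = 0.0225), 2.12 ± 0.28 for DBL over TDonly (adjusted p = 0.000507) and -3.17 ± 0.29 for TDonly over ColGFP (adjusted p = 1.92e-05). The Fgf2 call against ColGFP did not hold on leaving out 1 of DBL replicates 3 and 4 or of ColGFP replicates 2 and 3 (adjusted p 0.0676 to 0.0932). Of the exon bases of Fgf2, 9.44% are shared with Nudt6 on the opposite strand, so some reads may belong to Nudt6.

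Fgf9, a ligand of epithelial and mesothelial origin in the developing lung, measured 2.67, 4.28 and 3.39 CPM in DBL, 1.13, 0.841 and 1.32 CPM in TDonly and 7.33, 4.90 and 5.91 CPM in ColGFP. The libraries did not overlap, but DBL over ColGFP missed the threshold at -0.82 ± 0.25 (adjusted p = 0.0635). DBL over TDonly was 1.65 ± 0.28 (adjusted p = 0.00165) and TDonly over ColGFP -2.46 ± 0.28 (adjusted p = 7.10e-05). Its relative Fgf16 was lower in level and set only TDonly apart. It measured 2.02, 2.07 and 3.03 CPM in DBL, 0.195, 0.360 and 0.528 CPM in TDonly and 1.12, 2.48 and 3.05 CPM in ColGFP, with DBL and ColGFP overlapping. The log2 fold changes were 0.10 ± 0.42 for DBL over ColGFP (adjusted p = 0.907), 2.71 ± 0.48 for DBL over TDonly (adjusted p = 0.00220) and -2.61 ± 0.48 for TDonly over ColGFP (adjusted p = 0.00170).

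Fgf1, acidic FGF, which lacks a signal peptide and binds all FGF receptor kinases, ran the opposite way. It measured 69.7, 75.6 and 78.3 CPM in DBL, 120.2, 145 and 147 CPM in TDonly and 70.7, 48.9 and 43.3 CPM in ColGFP. TDonly was above the others in every library, and ColGFP replicate 1 fell within the range of DBL. The log2 fold changes were -0.88 ± 0.17 for DBL over TDonly (adjusted p = 0.00369) and 1.34 ± 0.17 for TDonly over ColGFP (adjusted p = 0.000176). DBL over ColGFP was 0.46 ± 0.17 (adjusted p = 0.117) with all libraries. It was 0.72 without ColGFP replicate 1 (adjusted p = 0.00465) and 0.76 within the second series (adjusted p = 1.74e-06). In the replicate 1 libraries taken alone it was -0.02. Endothelium markers, given above, were likewise highest in TDonly and lowest in ColGFP. Within DBL and TDonly, however, their sum was highest in replicate 1 (5154 and 13165 CPM), where Fgf1 was lowest. The summed epithelium markers had the same order of means, at 7716 CPM in DBL, 13437 in TDonly and 7321 in ColGFP. The ColGFP libraries spanned 4011 to 12003 CPM, however, and no epithelium marker passed between DBL and ColGFP. Sftpc alone gave 4632 CPM of the DBL mean. In DBL and TDonly the summed epithelium markers were lowest in replicate 1, as Fgf1 was, and in ColGFP both were highest there. The part of either list in Fgf1 was not tested.

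The remaining paracrine ligands were near the limit of detection. Fgf17 measured at most 1.29 CPM in any library and passed no comparison with all libraries; within the second series it was lower than in ColGFP both in DBL (log2 fold change -1.65, adjusted p = 0.0423) and in TDonly (-1.65, adjusted p = 0.0224). In the replicate 1 libraries taken alone, Fgf17 ran the other way, at 2.12 for DBL over ColGFP and 0.81 for TDonly over ColGFP. Fgf5, Fgf8 and Fgf22 had 0 to 15 counts per library and were not tested. Fgf3, Fgf4, Fgf6, Fgf20 and Spry3 are not analysed here.

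Of the endocrine ligands, which travel in blood and need klotho co-receptors, only Fgf23 had enough counts to be tested. Fgf23 is a phosphate-regulating hormone known from bone. It measured 8.85, 2.12 and 3.11 CPM in DBL, 0.195, 0.120 and 0.220 CPM in TDonly and 0.268, 0.968 and 1.62 CPM in ColGFP. DBL was above both other populations in every library, and DBL replicate 1 was far above the other DBL libraries. The sum of mesothelium markers was also highest in DBL: 5 of 7 were higher than in ColGFP and all 7 higher than in TDonly. Upk1b ran the other way against ColGFP without passing, at means of 70.0 CPM in DBL and 112 in ColGFP. The 7 markers summed to 749, 668 and 634 CPM in DBL, 77.0, 296 and 268 CPM in TDonly and 240.2, 282 and 221 CPM in ColGFP. The 7 adventitial fibroblast markers summed to 5988 to 8166 CPM in DBL, 1032 to 1466 CPM in TDonly and 1520.4 to 4390.0 CPM in ColGFP, with DBL replicate 1 the lowest of its population. Dcn (3648 CPM) and Col14a1 (1568 CPM) gave most of the DBL mean of 7289.8. Of the 7, 3 were higher in DBL than in ColGFP and none was lower. Against TDonly 5 were higher, and Dpp4 was lower, at 104 CPM in DBL and 187 in TDonly. The part of either list in Fgf23 was not tested. The log2 fold changes were 2.30 ± 0.66 for DBL over ColGFP (adjusted p = 0.0450) and 4.69 ± 0.79 for DBL over TDonly (adjusted p = 0.00169). TDonly over ColGFP was -2.38 ± 0.84 (adjusted p = 0.0422). Without DBL replicate 1 the Fgf23 values were 1.46 (adjusted p = 0.182) over ColGFP and 3.84 (adjusted p = 0.00314) over TDonly. The call over ColGFP was also lost on leaving out DBL replicate 4, 1 of TDonly replicates 2 and 3 or 1 of ColGFP replicates 1 and 2, with adjusted p from 0.0607 over these omissions. Without ColGFP replicate 3 the DBL over ColGFP value was 2.97 (adjusted p = 0.0487) and TDonly over ColGFP was -1.74 (adjusted p = 0.170). That TDonly call was lost as well without DBL replicate 4, any 1 TDonly library or ColGFP replicate 2. Fgf15 and Fgf21 had 0 to 7 counts per library; Fgf21 had 0 counts in all 3 TDonly libraries.

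The intracellular factors Fgf11, Fgf12, Fgf13 and Fgf14 are not secreted and bind voltage-gated sodium channels. All 4 were at most 3.51 CPM in any library. Fgf14 measured 1.94, 3.51 and 2.91 CPM in DBL, 0.117, 0.401 and 0.352 CPM in TDonly and 0.850, 2.42 and 2.45 CPM in ColGFP. TDonly was below the others in every library and DBL overlapped ColGFP (0.55 ± 0.46, adjusted p = 0.506), with log2 fold changes of 3.25 ± 0.55 for DBL over TDonly (adjusted p = 0.00166) and -2.70 ± 0.55 for TDonly over ColGFP (adjusted p = 0.00306). Fgf12 measured 0.458, 0.541 and 0.848 CPM in DBL, 0.273, 0.360 and 0.396 CPM in TDonly and 0.894, 1.27 and 0.878 CPM in ColGFP. It passed for TDonly over ColGFP alone, at -1.54 ± 0.40 (adjusted p = 0.0106).

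**Figure D2:**
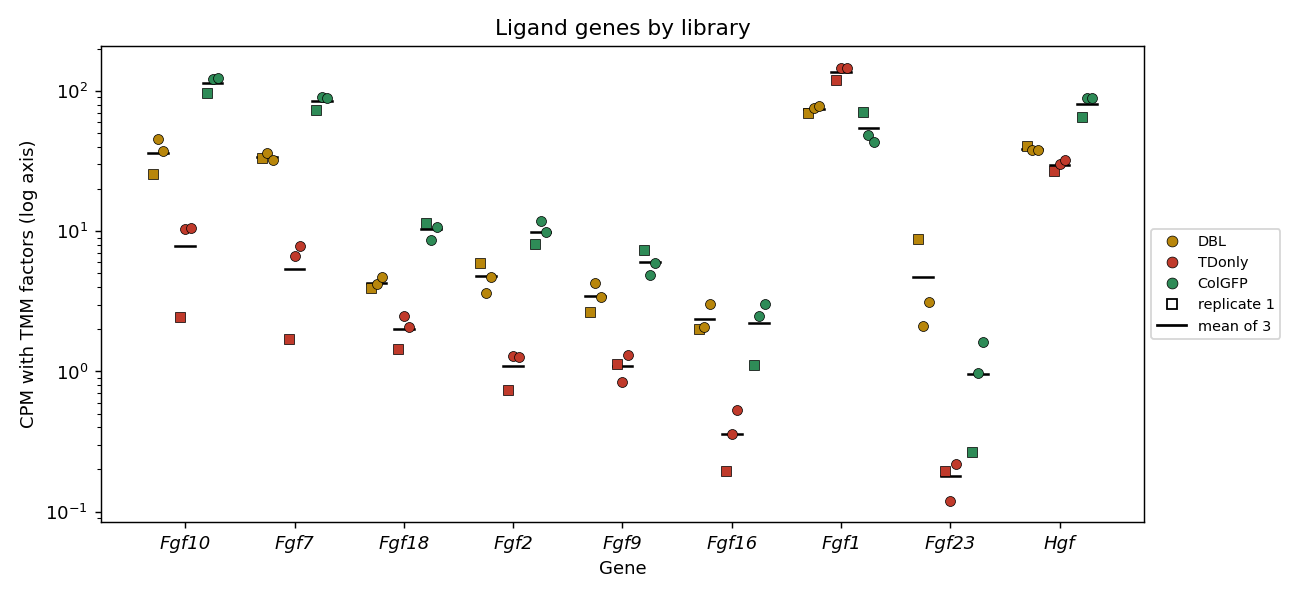
CPM on a log axis of 9 ligand genes (horizontal axis) in each library of DBL, TDonly and ColGFP; squares are the replicate 1 libraries and bars the means of 3. Fgf10, Fgf7, Fgf18, Fgf2, Fgf9 and Hgf are highest in ColGFP and lowest in TDonly with DBL between, Fgf1 is highest in TDonly, and Fgf23 is highest in DBL with replicate 1 at 8.85 CPM.

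Hgf, which mesenchymal cells secrete, lies on chromosome 5, 16553495 to 16619439. It measured 40.3, 37.9 and 38.2 CPM in DBL, 26.7, 30.3 and 32.0 CPM in TDonly and 65.2, 89.2 and 89.2 CPM in ColGFP. The populations did not overlap, and DBL was much nearer to TDonly than to ColGFP. DBL over ColGFP was -1.06 ± 0.13 (adjusted p = 0.000622) and TDonly over ColGFP was -1.45 ± 0.13 (adjusted p = 2.05e-05), both passing under all 18 alternatives. DBL over TDonly missed the threshold at 0.39 ± 0.13 (adjusted p = 0.0515), and passed within the second series at 0.33 (adjusted p = 0.00570).

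Met, the HGF receptor, differed from its ligand. It measured 63.0, 63.6 and 57.5 CPM in DBL, 63.9, 76.8 and 72.3 CPM in TDonly and 81.9, 49.5 and 52.8 CPM in ColGFP. ColGFP replicate 1 was the highest of all 9 libraries, and no comparison passed. The log2 fold changes were -0.00 ± 0.18 for DBL over ColGFP (adjusted p = 0.996), -0.21 ± 0.18 for DBL over TDonly (adjusted p = 0.404) and 0.21 ± 0.18 for TDonly over ColGFP (adjusted p = 0.361). Within the second series they were 0.26 (adjusted p = 0.0405), -0.26 (adjusted p = 0.0246) and 0.52 (adjusted p = 9.13e-05).

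Fgfr1, the main FGF receptor of mesenchymal cells, lies on chromosome 8, 25518759 to 25575718. It measured 303, 365 and 404 CPM in DBL, 35.7, 62.4 and 63.0 CPM in TDonly and 312, 388 and 392 CPM in ColGFP. DBL and ColGFP overlapped throughout and TDonly was far below both. DBL over TDonly was 2.73 ± 0.23 (adjusted p = 7.04e-05) and TDonly over ColGFP -2.76 ± 0.23 (adjusted p = 1.05e-05). DBL over ColGFP was -0.03 ± 0.21 (adjusted p = 0.957), with a range of -0.10 to 0.08 over the 18 alternatives. On the scale from TDonly to ColGFP the DBL mean of Fgfr1 stood at 97.9%, against 11.6% for Spry1, 17.7% for Hgf and 21.4% for Fgfr4. The 7 pericyte markers summed to 589 to 722 CPM in DBL, 129 to 227 CPM in TDonly and 536 to 638 CPM in ColGFP, a sum carried mostly by Pdgfrb and Notch3. They did not move as 1 group: 4 were lower in TDonly than in ColGFP, and Trpc6, Cox4i2 and Higd1b were higher. Between DBL and ColGFP, Trpc6 was higher and Kcnj8 lower in DBL. Their part in Fgfr1 was not tested.

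Fgfr3 and Fgfr4 act redundantly in alveolar formation in the mouse, which fails when both are lost. Fgfr4 (chromosome 13, 55152818 to 55168759) measured 21.8, 28.9 and 29.8 CPM in DBL, 2.92, 12.9 and 12.0 CPM in TDonly and 82.8, 94.2 and 97.3 CPM in ColGFP, with no overlap and TDonly replicate 1 again the lowest. DBL over ColGFP was -1.77 ± 0.41 (adjusted p = 0.0174), DBL over TDonly 1.54 ± 0.42 (adjusted p = 0.0202) and TDonly over ColGFP -3.30 ± 0.44 (adjusted p = 0.000202). The first call was lost on leaving out any 1 DBL library or 1 of ColGFP replicates 2 and 3 (adjusted p 0.0558 to 0.0650), and the DBL to TDonly call on leaving out DBL replicate 3 or 4 (adjusted p 0.0566 to 0.0593). Fgfr3 (chromosome 5, 33721724 to 33737068) had its lowest mean in DBL. It measured 132, 163 and 181 CPM in DBL, 204, 223 and 203 CPM in TDonly and 281, 353 and 359.8 CPM in ColGFP, with no overlap between the 3. DBL over ColGFP was -1.06 ± 0.14 (adjusted p = 0.000962) and TDonly over ColGFP was -0.66 ± 0.14 (adjusted p = 0.00382), and both passed under all 18 alternatives. DBL over TDonly was -0.40 ± 0.14 and missed the threshold (adjusted p = 0.0562), but passed within the second series at -0.26 (adjusted p = 0.00914). Of the exon bases of Fgfr3, 13.9% are shared with the gene model G630022F23Rik on the opposite strand.

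Fgfr2, whose epithelial form receives Fgf7 and Fgf10, measured 112, 105 and 111 CPM in DBL, 182, 174 and 163 CPM in TDonly and 198, 118 and 101 CPM in ColGFP. ColGFP replicate 1 was the highest of the 9 libraries and the other ColGFP libraries were near DBL. DBL over TDonly was -0.66 ± 0.21 (adjusted p = 0.0410), a call lost on leaving out any 1 DBL or TDonly library or ColGFP replicate 2 (adjusted p 0.0557 to 0.118). Fgfr2 in DBL over ColGFP was -0.35 ± 0.21 (adjusted p = 0.343) and TDonly over ColGFP 0.31 ± 0.21 (adjusted p = 0.252). Within the second series these Fgfr2 values were -0.00 (adjusted p = 0.999) and 0.60 (adjusted p = 9.68e-06). Gene counts do not separate the splice forms of Fgfr2. Fgfrl1, a receptor without a kinase domain, measured 19.6, 18.1 and 18.6 CPM in DBL, 14.3, 11.5 and 10.5 CPM in TDonly and 20.1, 20.7 and 21.8 CPM in ColGFP. It was lower in TDonly than in either other population, at 0.63 ± 0.13 for DBL over TDonly (adjusted p = 0.00499) and -0.78 ± 0.13 for TDonly over ColGFP (adjusted p = 0.000838).

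Spry1, an inhibitor of receptor tyrosine kinase signalling, lies on chromosome 3, 37639947 to 37644599. It measured 114, 107 and 124 CPM in DBL, 111, 86.1 and 85.2 CPM in TDonly and 317, 239 and 268 CPM in ColGFP. ColGFP was above every library of the other populations, which overlapped each other. Spry1 in DBL over ColGFP was -1.26 ± 0.14 (adjusted p = 0.000357) and TDonly over ColGFP -1.55 ± 0.14 (adjusted p = 2.12e-05), and both passed under all 18 alternatives. DBL over TDonly was 0.29 ± 0.14 (adjusted p = 0.153). Of the exon bases of Spry1, 24.4% are shared with the gene model Gm42922 on the opposite strand.

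Spry4 ran against Spry1. It measured 127, 86.9 and 90.9 CPM in DBL, 205, 146 and 140.2 CPM in TDonly and 91.5, 101 and 102 CPM in ColGFP. TDonly was above the other populations in every library, and replicate 1 was the highest library of both DBL and TDonly. The log2 fold changes were -0.69 ± 0.18 for DBL over TDonly (adjusted p = 0.0178) and 0.74 ± 0.18 for TDonly over ColGFP (adjusted p = 0.00821), with DBL over ColGFP at 0.05 ± 0.18 (adjusted p = 0.889). The DBL to TDonly call was lost without DBL replicate 3 or 4 (adjusted p 0.0726 to 0.102). Spry2 measured 64.0, 55.3 and 58.1 CPM in DBL, 49.6, 44.3 and 46.2 CPM in TDonly and 74.8, 71.2 and 66.8 CPM in ColGFP, without overlap. It was higher in DBL than in TDonly by 0.34 ± 0.09 (adjusted p = 0.0193) and lower in TDonly than in ColGFP by -0.60 ± 0.09 (adjusted p = 0.000495). Against ColGFP, DBL was at -0.26 ± 0.09 (adjusted p = 0.0931). The DBL to TDonly call of Spry2 was lost without DBL replicate 1 or TDonly replicate 2 or 3 (adjusted p 0.0618 to 0.0803).

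The Spred genes, which restrain Ras and Raf signalling, moved little. Spred1 measured 62.3, 70.1 and 53.5 CPM in DBL, 58.8, 55.1 and 45.3 CPM in TDonly and 83.2, 66.7 and 68.6 CPM in ColGFP. Spred2 measured 43.0, 41.6 and 41.9 CPM in DBL, 47.7, 41.5 and 40.0 CPM in TDonly and 49.5, 52.4 and 52.9 CPM in ColGFP. Both passed between TDonly and ColGFP alone, at -0.46 ± 0.14 for Spred1 (adjusted p = 0.0248) and -0.26 ± 0.09 for Spred2 (adjusted p = 0.0382). Spred1 lost that call on leaving out ColGFP replicate 1 or 1 of TDonly replicates 2 and 3 (adjusted p 0.0523 to 0.0907). Spred2 lost it without DBL, TDonly or ColGFP replicate 3, DBL replicate 4, or TDonly or ColGFP replicate 2 (adjusted p 0.0511 to 0.133). Spred3 averaged 9.46 ± 1.64 CPM in DBL, 8.88 ± 3.83 in TDonly and 6.07 ± 1.24 in ColGFP and passed nowhere.

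**Figure D3:**
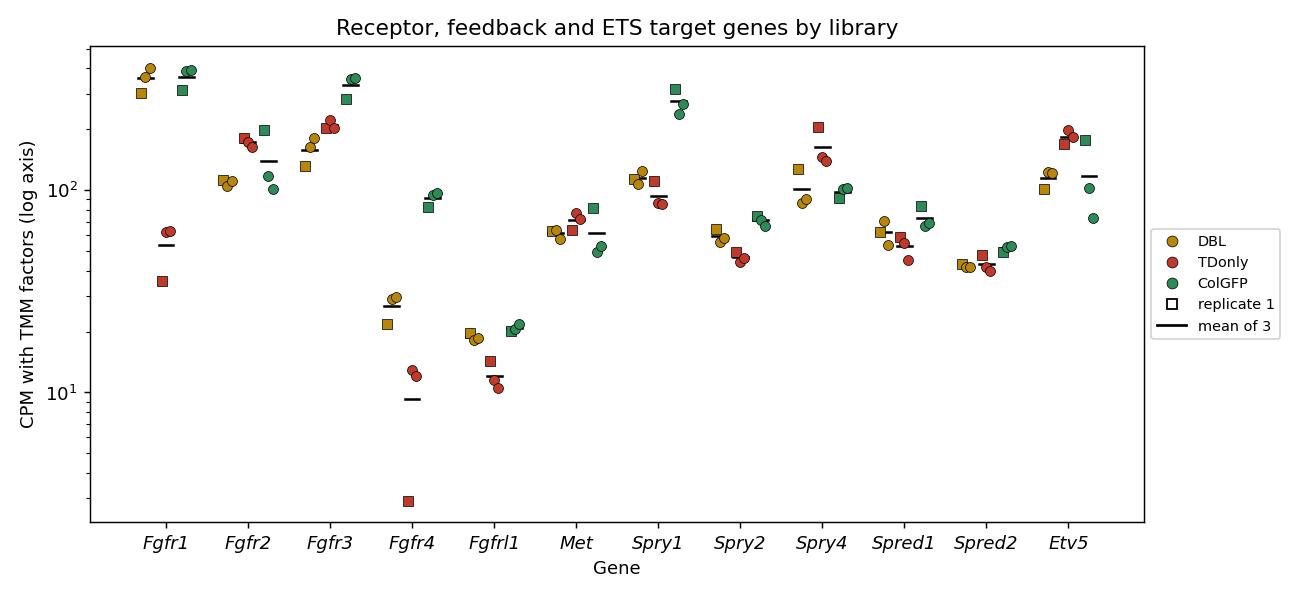
CPM on a log axis of 12 receptor, feedback and ETS factor genes (horizontal axis) in each library; squares are the replicate 1 libraries and bars the means of 3. Fgfr1 separates TDonly from both other populations, Spry1 separates ColGFP from both others, and for Fgfr2, Met and Etv5 the ColGFP square stands above the other ColGFP points.

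Etv5, an ETS factor that FGF signalling induces and that alveolar type II epithelial cells also express, measured 101, 123 and 121 CPM in DBL, 169, 199 and 184 CPM in TDonly and 178, 102 and 73.0 CPM in ColGFP. TDonly was above DBL in every library, but ColGFP spanned from the lowest library of all to within the TDonly range. No comparison passed, with DBL over TDonly at -0.68 ± 0.27 (adjusted p = 0.0875), TDonly over ColGFP at 0.64 ± 0.27 (adjusted p = 0.0770) and DBL over ColGFP at -0.03 ± 0.27 (adjusted p = 0.958). Within the second series all 3 passed, at -0.61 (adjusted p = 0.000200), 1.11 (adjusted p = 1.54e-07) and 0.50 (adjusted p = 0.00219). Etv4 was scarce, at 1.26, 1.49 and 1.17 CPM in DBL, 0.896, 0.481 and 0.572 CPM in TDonly and 1.48, 1.15 and 1.11 CPM in ColGFP. It was called at 1.00 ± 0.34 for DBL over TDonly (adjusted p = 0.0499) and -0.93 ± 0.34 for TDonly over ColGFP (adjusted p = 0.0479). The Etv4 call for DBL over TDonly was lost on leaving out any 1 DBL library or replicate 2 or 3 of TDonly or ColGFP (adjusted p 0.0637 to 0.161). The call for TDonly over ColGFP was lost without those same libraries and without ColGFP replicate 1 (adjusted p 0.0626 to 0.153).

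Among the ColGFP libraries, epithelium markers were highest where Etv5, Fgfr2 and Met were highest. Their summed level was 12003 CPM in ColGFP replicate 1, against 5949.8 and 4011 CPM in ColGFP replicates 2 and 3. In that library Etv5, Fgfr2 and Met were also above the other ColGFP libraries, at 178, 198 and 81.9 CPM. This did not extend to the other populations for Fgfr2: its highest DBL and TDonly libraries, both replicate 1, had the lowest summed markers of their populations (7273 and 11371 CPM). For Etv5 it did in part: those same libraries were its lowest, at 101 and 169 CPM. TDonly replicate 2 had the highest Etv5 (199 CPM), Met (76.8 CPM) and summed markers (14813 CPM) of its population. Met was lowest in DBL replicate 4 (57.5 CPM), where the DBL markers were highest (8016 CPM). Of the 10 epithelium markers, 5 were higher in TDonly than in ColGFP. Some other sums were also highest in ColGFP replicate 1. They were 5581 CPM for smooth muscle and myofibroblast markers, 2378 for 10 leukocyte markers and 1098 for endothelium markers. Sums of adventitial fibroblast and pericyte markers were lowest there. Those of alveolar fibroblast and mesothelium markers lay between the other ColGFP libraries. The part of any of these lists, epithelium included, in the 3 genes was not tested.

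**Figure D4:**
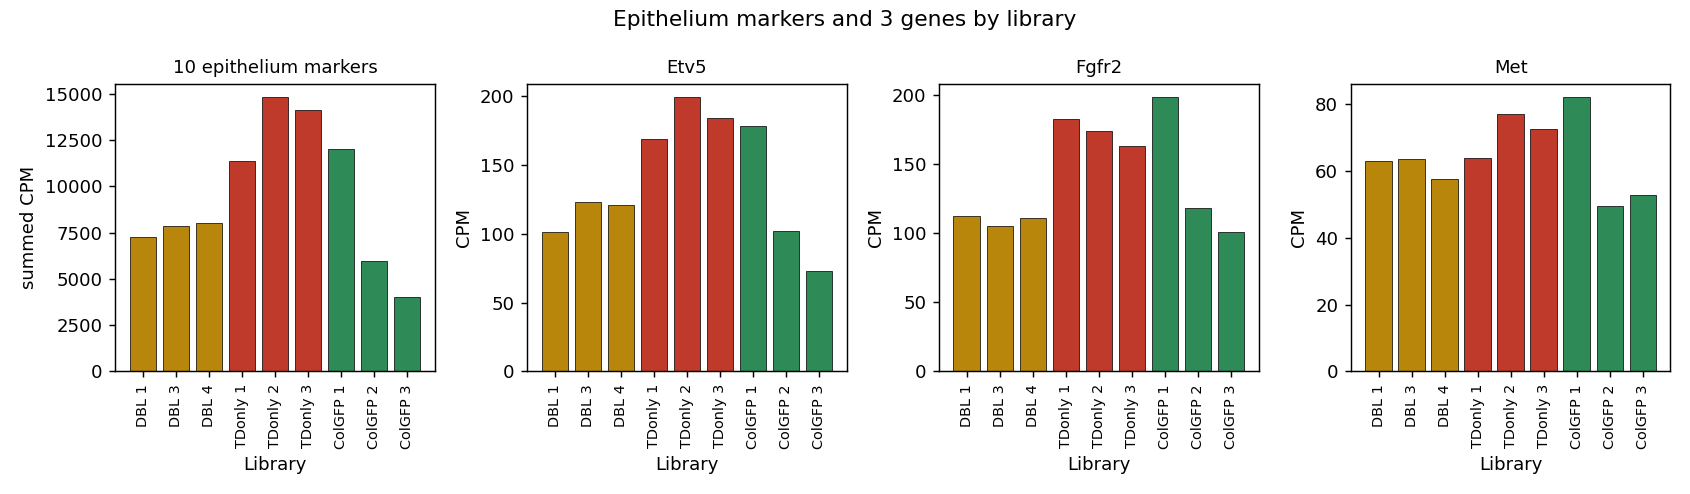
Bars give, for each library of DBL, TDonly and ColGFP, the summed CPM of 10 epithelium markers and the CPM of Etv5, Fgfr2 and Met (vertical axes start at 0). In all 4 panels ColGFP replicate 1 stands above the other ColGFP libraries, with 12003 CPM of summed markers against 5949.8 and 4011.

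Levels were compared between genes after division by exon length. That length is the union of all annotated exons of a gene, which can differ from that of the transcripts expressed. Per kilobase of exon, the paracrine FGF ligands summed to 39.0 ± 3.15 CPM in DBL, 31.2 ± 5.39 in TDonly and 74.2 ± 3.79 in ColGFP. Fgf1 took 35.0 ± 1.54% of it in DBL, 81.1 ± 5.90% in TDonly and 13.5 ± 4.37% in ColGFP. Fgf7 took 24.8 to 28.8% in DBL, 2.11 to 7.03% in TDonly and 32.1 to 36.7% in ColGFP. Fgf10 took 15.7 to 24.0% in DBL, 2.13 to 6.62% in TDonly and 30.3 to 35.0% in ColGFP. Fgf18 took 9.29 ± 0.746% in DBL, 5.34 ± 0.702% in TDonly, where it overlapped Fgf7 and Fgf10, and 11.7 ± 2.01% in ColGFP. Fgf1 was the leading ligand transcript in DBL and TDonly, and Fgf7 and Fgf10 led in ColGFP with overlapping shares.

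Among the 4 receptor kinases, Fgfr1 took 47.2 ± 0.720% of the level per kilobase in DBL, 9.96 ± 2.48% in TDonly and 30.0 ± 1.87% in ColGFP. Fgfr3 took 28.9 ± 0.930% in DBL, 54.3 ± 1.95% in TDonly and 37.7 ± 2.68% in ColGFP. Per kilobase, DBL was thus the population in which Fgfr1 led, while Fgfr3 led in the others. In ColGFP this order depends on the exon lengths used, 9875 bases for Fgfr1 and 7158 for Fgfr3. Before division, Fgfr1 averaged 364 CPM and Fgfr3 331 CPM in ColGFP. Fgfr4 took 9.88 ± 0.554% in DBL, 4.74 ± 2.69% in TDonly and 21.1 ± 0.495% in ColGFP. Fgfr2 took 14.0 ± 2.05% in DBL, 31.0 ± 3.27% in TDonly and 11.2 ± 4.97% in ColGFP, the last with ColGFP replicate 1 at 16.9%. Of the feedback genes, Spry1 led in DBL and ColGFP, at 36.3 ± 2.99% and 54.8 ± 3.30%, while in TDonly Spry4 at 30.3 to 34.2% and Spry1 at 29.7 to 30.2% were close. These shares are descriptions without a test.

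**Figure D5:**
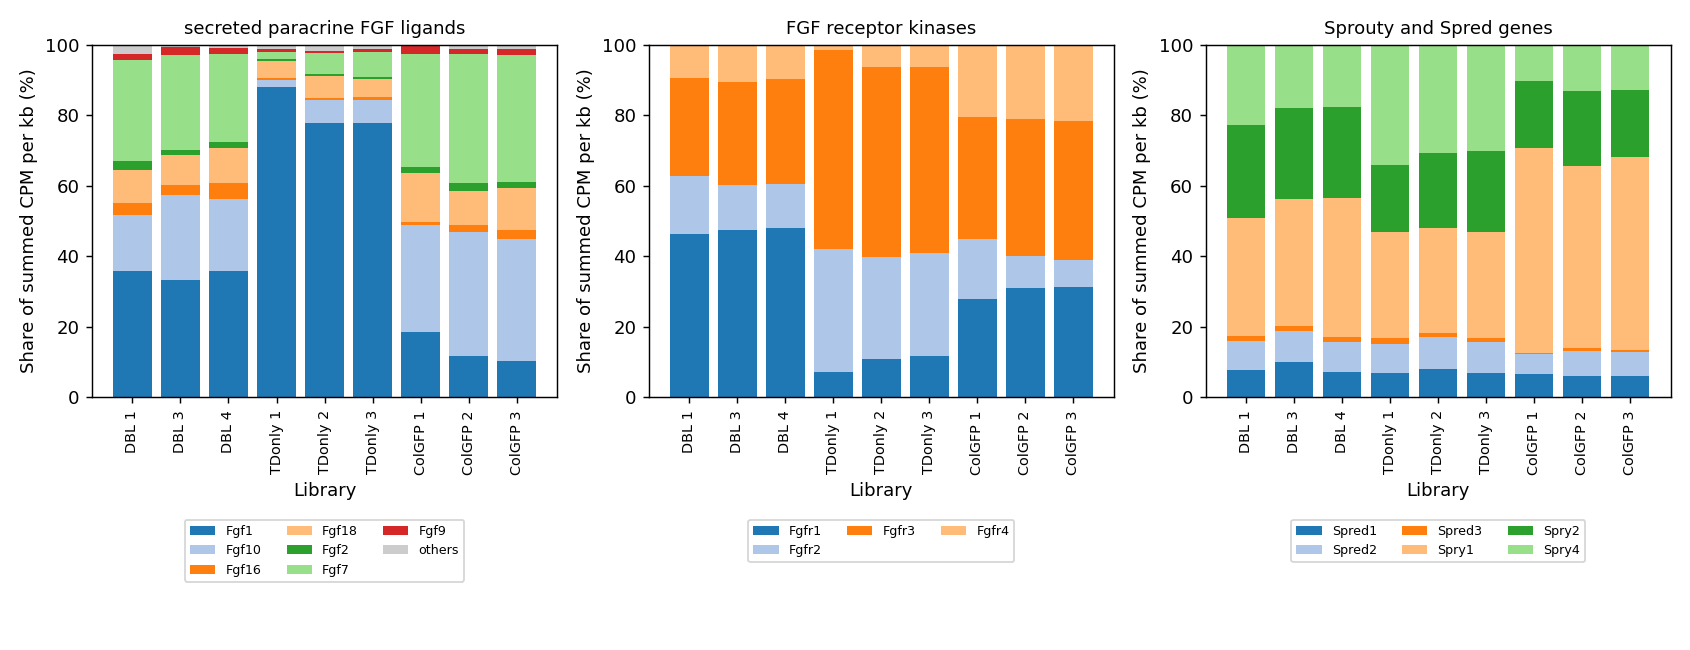
Stacked bars give each gene's share (vertical axis, % of summed CPM per kilobase of exon) of the paracrine FGF ligands, the FGF receptor kinases and the Sprouty and Spred genes in each library. Fgf1 takes 77.7 to 87.9% of ligand level in TDonly, and Fgfr1 takes 46.4 to 47.9% of receptor level in DBL.

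Other genes of the FGF pathway were read from a list of 33 co-receptors, adaptors, kinases and feedback genes, of which 32 were tested. DBL differed from ColGFP in 8 of them, 5 higher (15.6%) and 3 lower (9.38%), beside 8.04% and 6.47% of all tested genes. The ETS factor Etv1 was lowest in TDonly and highest in ColGFP, at 13.3 ± 2.47 CPM in DBL, 6.11 ± 2.71 in TDonly and 42.9 ± 1.93 in ColGFP (DBL over ColGFP -1.68 ± 0.29, adjusted p = 0.00432). The adaptor Frs2, which links FGF receptors to Ras, was lower in DBL at -0.40 (adjusted p = 0.0169). Plcg1, the phospholipase that the receptors activate, was higher in DBL at 0.62 ± 0.10 (adjusted p = 0.00312), as was Nras at 0.72 ± 0.13 (adjusted p = 0.00448). Il17rd, an FGF feedback inhibitor also called Sef, measured 116 ± 7.43 CPM in DBL, 165 ± 8.06 in TDonly and 79.0 ± 12.2 in ColGFP and was higher in DBL than in ColGFP by 0.55 ± 0.12 (adjusted p = 0.0134).

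In DBL over TDonly, 7 of the 32 were higher (21.9%) and 8 lower (25.0%), beside 17.3% and 12.6% of all tested genes. The higher ones included Flrt2, a membrane protein of a family that binds FGF receptors, at 2.41 ± 0.33 (adjusted p = 0.000595), and the heparan sulphate 6-O-endosulphatases Sulf1 at 1.57 ± 0.22 (adjusted p = 0.000698) and Sulf2 at 1.98 ± 0.33 (adjusted p = 0.00165). The lower ones included Plcg1 at -0.92 ± 0.10 (adjusted p = 0.000209), Mapk3 at -0.65 (adjusted p = 0.000462) and Cbl, a ubiquitin ligase, at -0.48 (adjusted p = 0.00173). In TDonly over ColGFP, 10 were higher (31.2%) and 8 lower (25.0%), beside 21.6% and 24.0% of all tested genes, so the lower share was near the background. Among the higher were Plcg1 at 1.54 ± 0.10 (adjusted p = 3.08e-06), Mapk3 at 0.97 ± 0.09 (adjusted p = 1.58e-05), Nras at 1.17 ± 0.13 (adjusted p = 5.39e-05), Il17rd at 1.06 ± 0.12 (adjusted p = 7.39e-05) and Cbl at 0.72 ± 0.08 (adjusted p = 7.57e-05). Etv1 was among the lower, at -2.81 ± 0.31 (adjusted p = 6.01e-05).

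Of 12 other genes of the HGF pathway, 3 were higher in DBL than in ColGFP (25.0%, beside 8.04% of all tested genes) and the other 9 did not pass. Nrp1, a co-receptor of VEGF that also binds HGF, was higher at 0.64 ± 0.10 (adjusted p = 0.00311). Hgfac, a protease that activates HGF, was higher at 1.58 ± 0.36 (adjusted p = 0.0175), and the urokinase gene Plau at 0.95 ± 0.26 (adjusted p = 0.0399). Mst1r, the paralog of Met that binds macrophage stimulating protein, showed the pattern of Fgfr1. It measured 48.0, 43.2 and 41.8 CPM in DBL, 3.16, 8.21 and 7.91 CPM in TDonly and 34.5, 50.6 and 50.2 CPM in ColGFP, with only TDonly apart. DBL over TDonly was 2.79 ± 0.32 (adjusted p = 0.000233), TDonly over ColGFP -2.81 ± 0.32 (adjusted p = 7.09e-05) and DBL over ColGFP -0.02 ± 0.29 (adjusted p = 0.971). In DBL over TDonly 2 of the 12 were higher, Mst1r and the plasminogen activator gene Plat (1.11 ± 0.20, adjusted p = 0.00233), and Nrp1 was lower (-0.60 ± 0.10, adjusted p = 0.00193). Those shares, 16.7% and 8.33%, were below the 17.3% and 12.6% of all tested genes. In TDonly over ColGFP 6 of the 12 were higher and 3 (25.0%) were lower, beside 21.6% and 24.0% of all tested genes. The higher included Nrp1 at 1.24 ± 0.11 (adjusted p = 1.27e-05), Hgfac at 2.45 ± 0.36 (adjusted p = 0.000430) and Plau at 1.35 ± 0.26 (adjusted p = 0.00234). The lower were Mst1r, Plat at -1.73 ± 0.20 (adjusted p = 8.89e-05) and Cd44, a hyaluronan receptor, at -0.68 ± 0.18 (adjusted p = 0.0103).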

How the data were processed

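RNA-seq was done on 9 libraries, 3 per population, with groups and replicate numbers from the titles and columns matched by the core number in each description. The authors deposited raw read counts by gene symbol; 3 table columns that match no sample were left unused. Per the submitters' processing notes, the authors used cutadapt, TopHat and HTSeq with mm10, without versions. Neither annotation nor strand setting is stated there, so reads of overlapping genes cannot be told apart.

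Genes were filtered with edgeR's filterByExpr (minimum count 10), leaving 15550. The edgeR 4.0.16 quasi-likelihood fit used TMM factors and 1 mean for each population, with 6 residual degrees of freedom (R 4.3.3; limma 3.58.1 and DESeq2 1.42.0 for alternatives). P-values were adjusted by Benjamini and Hochberg's method across every tested gene and called at 0.05. The standard error is the log2 fold change divided by the square root of F. Exon lengths are unions of GENCODE M21 exons. Log2 ratios between single libraries used CPM plus 0.1. Genes were named by a rule: library values for each gene of the set that passed at a mean of 1 CPM in some population, or that had a mean of at least 10 CPM, and up to 6 genes by adjusted p from each list of other pathway genes; 1 gene that the rule names is not reported here. The genes and lists were chosen with earlier results of these data known. The alternatives, apart from leaving out each library, were 2 other scalings, 2 other tests, no filter, fewer samples and 2 covariates. In data simulated for DBL against ColGFP over 15368 genes, the test called 69 of 100 genes given a 2-fold change and 99 of 100 given a 4-fold change, besides 9 false calls.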

Additional observations from a re-analysis of the deposited data

How the results depend on the processing

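Under DESeq2 size factors, upper-quartile factors, the DESeq2 test, limma-voom, no filter, only the 2 populations compared, the replicate block and the core number series as a covariate, no gene of the set that passed in either fit changed direction. Within the second series alone, where fewer samples enter, DBL over ColGFP passed at 0.50 for Etv5 and 0.26 for Met. With all libraries these values were -0.03 and -0.00 and did not pass. The genes of the set higher in DBL than in ColGFP were 1 in the report, Fgf23. They were 0 by limma-voom, with only the 2 populations compared, with the replicate block and with the core number series as covariate. Within the second series they were 3, Fgf1, Etv5 and Met, and Fgf23 did not pass. Within the second series the set's count lower in DBL than in TDonly was 6 (against 3), and higher in TDonly than in ColGFP 5 (against 2). Among all genes, those higher and lower in DBL than in ColGFP were 2543 and 1969 within the second series (against 1250 and 1006), and lower in DBL than in TDonly 3031 (against 1965). With the replicate block, 626 genes were lower in DBL than in ColGFP. The cause of these changes was not tested.

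Leaving out each library in turn gave, for the set, 0 to 1 higher and 4 to 9 lower in DBL against ColGFP, 11 to 14 higher and 1 to 5 lower in DBL against TDonly, and 2 to 5 higher and 15 to 18 lower in TDonly against ColGFP. Among all genes it gave 845 to 1488 higher and 581 to 1298 lower, 2264 to 3098 higher and 1155 to 2019 lower, and 2439 to 3465 higher and 3263 to 3938 lower in the same comparisons.

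The replicate numbers were not taken as pairs: deviations of same-numbered libraries from their population means correlated at 0.0156 to 0.527 over 7 pairs, not all above 0.1, although the replicate 1 libraries share a core number series. This check and the replicate block go by the number in the title, so DBL replicate 4 had no partner in either. By core number, the second series runs DBL replicate 3, ColGFP and TDonly replicate 2, DBL replicate 4, then ColGFP and TDonly replicate 3. A pairing by that order was not examined. With the replicate block, 6 genes of the set were lower in DBL than in ColGFP, 11 higher and 2 lower in DBL than in TDonly, and 2 higher and 16 lower in TDonly than in ColGFP. In DBL over ColGFP the block ended the calls of Fgf7 (-1.14, adjusted p = 0.141), Fgf2 (-0.90, adjusted p = 0.156) and Fgf23 (2.38, adjusted p = 0.199). In DBL over TDonly it ended those of Etv4, Fgfr2, Spry2 and Spry4 and made one of Fgfr3, and in TDonly over ColGFP it ended those of Etv4, Fgf23 and Spred2. Depth limits Fgf5, Fgf8, Fgf15, Fgf21 and Fgf22, which had 0 to 15 counts per library and were not tested.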
